A study of Mus musculus with 16 samples.

Results

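The protein-coding genes of the cytosolic ribosome were described in 4T1 and 67NR cells given vehicle or the cPLA2α inhibitor CIX. They were taken by gene symbol (Rpl or Rps followed by a number, Rpsa, Rplp0, Rplp1 and Rplp2, without the Rps6k kinases and pseudogenes), which gave 86 of the 33072 genes in the count table. Of these, 77 encode proteins of the ribosome itself, 31 in the small subunit, 43 in the body of the large subunit and 3 in its stalk. A further 8 are paralogues of such genes (Rpl3l, Rpl7l1, Rpl10l, Rpl22l1, Rpl36al, Rpl39l, Rps27l and Rps27rt), and Rps19bp1 encodes a protein that binds Rps19 and is not part of the ribosome.

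Both cell lines come from one spontaneous mammary carcinoma of a BALB/c mouse, 4T1 being metastatic and 67NR not. CIX is a synthetic derivative of an ω3-polyunsaturated fatty acid, and it was applied at 15 µM for 24 h in medium with 10% serum. Each of the 4 groups (67NR vehicle, 67NR CIX, 4T1 vehicle, 4T1 CIX) held 4 samples of poly(A)-selected RNA, which the labels number from 1 to 16 across all groups. Each line is a single line grown in culture, so a difference between 4T1 and 67NR is one between these lines, with no repeat in others.

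A ribosome holds 1 copy of nearly every ribosomal protein, while the stalk proteins Rplp1 and Rplp2 are present as pairs on Rplp0. Most of these mRNAs begin with a C followed by a run of pyrimidines, the terminal oligopyrimidine (TOP) tract, through which mTORC1 and the RNA-binding protein Larp1 set their translation. Mammalian genomes also carry many pseudogenes of these genes, reverse-transcribed from their mRNAs and close to them in sequence, so that short reads can fall on either.

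The start regions of 6 genes named in the results below are shown. Rps26, Rpl22l1, Rpl22 and Rpl4 rose with CIX in 4T1, Rpsa was higher in 4T1 than in 67NR, and Rps27 stood apart in 2 libraries. Each window holds 15 bases before and 15 bases from the annotated start on, read 5′ to 3′ on the strand of the gene from RefSeq's GRCm38.p6 sequence. Capitals mark a C followed by at least 4 pyrimidines that begins within 5 bases of the annotated start, and a window without capitals has no such run. Rpl22 has 2 annotated starts.
Rps26, chr10:128626492-128626521, minus strand: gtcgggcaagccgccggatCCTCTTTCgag
Rpl22l1, chr3:28805493-28805522, plus strand: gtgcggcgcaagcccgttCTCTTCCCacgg
Rps27, chr3:90213634-90213663, minus strand: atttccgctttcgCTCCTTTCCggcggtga
Rpl4, chr9:64173372-64173401, plus strand: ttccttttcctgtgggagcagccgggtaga
Rpsa, chr9:120127751-120127780, plus strand: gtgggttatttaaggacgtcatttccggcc
Rpl22, chr4:152325711-152325740, plus strand: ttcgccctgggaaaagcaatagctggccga
Rpl22, chr4:152324421-152324450, plus strand: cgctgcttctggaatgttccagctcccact

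A start was listed for 66 of the 86 genes, and Rps27a, Rpl32, Rpl3 and Rpl21 were among those without one. The tract was found at a start of 30 of the 66, which is 45.5%, beside 5718 of 27025 genes in all, which is 21.2%. Only the strand of the gene was searched. A window without the tract says only that these letters are not at the annotated start, which need not be the start used in these cells.

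Reads of this gene set were often placed on pseudogenes. In total, 701 pseudogenes in the count table were joined to a ribosomal protein gene, 278 by their symbol and 423 because at least 20% of their 31-base words occur in that gene, and 80 of the 86 genes had at least 1. A median of 38.5% of a gene's own words also occurred in another gene. For 31 genes the gene itself held less than 50% of the counts of its family, the gene and its pseudogenes, whereas for 42 it held more than 95%.

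The most extreme cases were Rps12 at 0.3% of its family, Rps2 at 0.6%, Rpl5 at 2.7%, Rpl21 at 6.1% and Rpl12 at 6.5%. Single pseudogenes took most of these counts. Rps2-ps10 held 98.6% of the Rps2 family and Gm15500, on chromosome 7, held 97.3% of the Rpl5 family. By contrast, Rps26, Rpl4, Rpl22, Rpl32 and Rpsa kept nearly all counts of their families, as the plot of the split of counts shows. In 9 genes, at least 20% of the words also occurred in another protein-coding gene, and these were Rps27rt, Rplp1, Rps18, Rps27, Rpl13a, Rpl35, Rplp2, Rps4x and Rpl29. Counts of these 9 may be divided between genes, and this was not undone here.

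**Figure D1:**
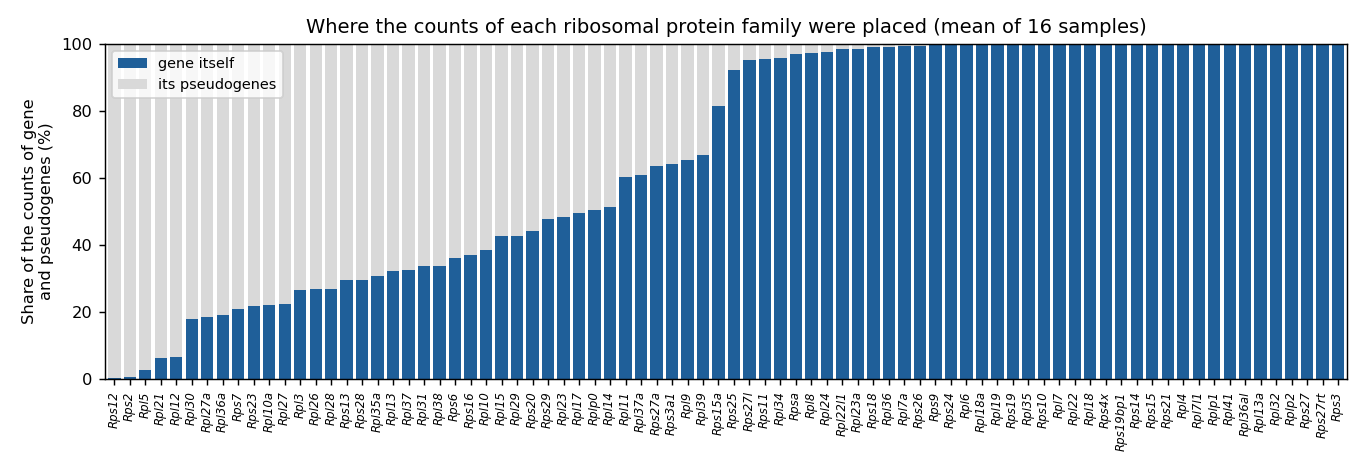
Share of the counts of each gene and its pseudogenes (y axis, %) that was placed on the gene itself (blue) or on its pseudogenes (grey), as the mean of 16 samples, for named genes with at least 300 counts in the family (x axis). Rps12, Rps2, Rpl5, Rpl21 and Rpl12 hold under 7% of their family, while the right part of the plot, from Rps25 to Rps27, is almost wholly blue.

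Because of this, each result is given for the gene alone and, where it differs, for the family with pseudogene counts added. Levels of different genes were compared per length, as TPM, the length-scaled share of all transcripts. Over the 77 ribosomal proteins, the standard deviation of log2(TPM + 1) was 1.67 for the genes alone and 0.817 for the families. The lowest level of a gene alone was that of Rps12, at 10.4 TPM, and the highest that of Rplp1, a stalk protein, at 6481 TPM. With pseudogene counts added, Rps12 measured 3563 TPM and Rps2 measured 4777 TPM, close to the Rplp0 family at 5117 TPM. The lowest family was then Rps27, at a mean of 367 TPM, which is described further below. That mean rests on 2 vehicle libraries. Rps27 alone measured 998.2 TPM in 67NR vehicle and 335.7 TPM in 4T1 vehicle, but 38.05 and 38.54 TPM in 67NR and 4T1 with CIX.

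Among the paralogues, Rpl10l and Rpl39l had no counts in any sample, and Rpl3l, known from muscle, stayed at 0.0424 TPM. Rpl7l1 measured 103 TPM, Rpl22l1 150 TPM, Rps27l 310 TPM and Rpl36al 333 TPM, all below the median of 1289 TPM over the ribosomal proteins, while Rps27rt, at 2067 TPM, lay above it. These 3 silent or nearly silent genes and Rps12 did not pass the filter on low values (TPM below 1 in more than 3 samples of a comparison), which left 82 genes tested alone and 83 as families.

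Between 21715700 and 29450629 counts were assigned per sample, so that 3 counts correspond to 0.102 to 0.138 CPM, the share of all counts on the same kind of scale. The 4T1 samples held the epithelial markers Epcam, Cdh1, Krt8 and Krt18 at 175 CPM or more, and the 67NR samples held each of them at 2.3 CPM or less, with Vim at 4520 CPM or more. Of the other epithelial markers listed, Krt19 lay at 58.3 CPM or more in 4T1, while Krt5 and Krt14 stayed at 4.52 CPM or less throughout. The mesenchymal markers Cdh2, Zeb1 and Pdgfrb were higher in 67NR. Mean Fn1 was higher in 4T1 (1270 CPM in 67NR vehicle, 1650 CPM in 4T1 vehicle), and Col1a1 stayed at 4.64 CPM or less. Of the leukocyte and endothelial markers, Cd68 alone exceeded 2.3 CPM in any sample, and it was higher with CIX in both lines (mean 8.82 and 37.5 CPM in 67NR, 68.8 and 165 CPM in 4T1). With CIX, mean Vim was also higher without overlap (5080 and 7680 CPM in 67NR, 1110 and 2670 CPM in 4T1). In 4T1 the means of Epcam (315 and 186 CPM) and Cdh1 (599 and 492 CPM) were lower. Higher there with CIX were the means of Krt8 (550 and 747 CPM), Krt18 (1070 and 1200 CPM) and Krt19 (70.8 and 114 CPM). The part of these in the results was not tested. In lysates, a change in the share of cells of one kind cannot be told apart from a change of RNA per cell. The libraries 67NR vehicle 13 and 4T1 vehicle 11 stood apart from their groups in a subset of ribosomal protein genes, and results that rest on them are marked.

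The ribosomal protein genes took a larger share of all counts with CIX in both lines. In 67NR they held 6.65% ± 0.239 (SD, n = 4) of all counts with vehicle and 7.29% ± 0.192 (n = 4) with CIX. In 4T1 the share was 5.36% ± 0.253 (n = 4) with vehicle and 6.17% ± 0.0951 (n = 4) with CIX. Within each line the CIX samples did not overlap with the vehicle samples, which ranged from 6.32% to 6.86% in 67NR and from 5.08% to 5.69% in 4T1. All 8 samples of 4T1 lay below all 8 samples of 67NR.

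With pseudogene counts added, the shares were 10.01% ± 0.314 and 11.1% ± 0.35 in 67NR, and 8.33% ± 0.411 and 9.58% ± 0.201 in 4T1. The order of the group means was kept, but the lines then overlapped, with 4T1 CIX 12 at 9.86% and 67NR vehicle 9 at 9.57%, as the plot of the share of counts shows. The genes themselves held 64.4% of the family counts in both 4T1 groups, 66.5% in 67NR vehicle and 65.7% in 67NR CIX. Transcripts of mitochondrial genes took 0.377% to 1.76% of the counts, and leaving them out of the total moved each group mean by less than its SD. A share of counts was not tested, as it is a sum over genes chosen together.

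**Figure D2:**
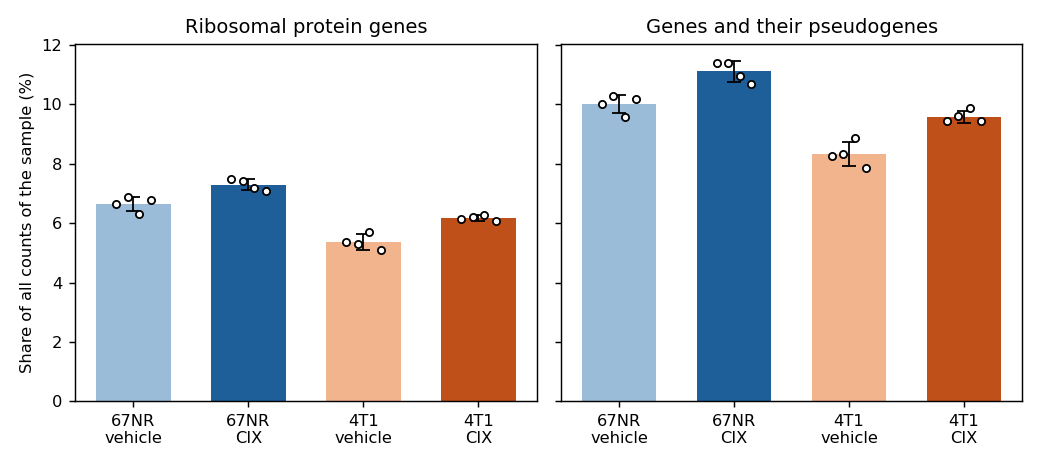
Share of all counts of a sample (y axis, %) held by the 86 ribosomal protein genes (left) and by these genes with their pseudogenes (right), by group. Bars are means, error bars SD, and circles the 4 samples of each group, with 4T1 vehicle lowest (5.08% to 5.69% for the genes alone) and 67NR CIX highest (7.09% to 7.48%).

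CIX raised a small number of ribosomal protein mRNAs in 4T1 beyond the threshold, and most of the others lay above 0 without passing it. Rps26, Rpl32, Rpl22, its paralogue Rpl22l1, and Rpl4 were higher with CIX (limma-voom, Benjamini-Hochberg adjusted p below 0.001 over all genes tested), and none was lower. These are 5 of 82, or in percent about the background, since 5.34% of the 11714 genes tested were higher and 4.02% were lower. At an adjusted p below 0.05, 47 of the 82 were higher and 1 was lower (Rpl5), beside 21.9% and 20.8% of all genes.

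The log2 fold change was above 0 in 72 of the 82 genes, with a median of 0.25 beside -0.0067 over all genes tested. In 47 genes every CIX sample exceeded every vehicle sample, which was the case for 21.2% of all genes, and in 1 the reverse held, beside 18.8%. Small subunit genes had a median of 0.21 (30 genes), those of the large subunit 0.27 (43 genes) and the stalk 0.30 (3 genes). Ribosomal protein mRNAs are short, and the other genes with a mean transcript length below 1000 bases had a median of -0.03. With pseudogene counts added, 7 of 83 families were higher, beside 5.69% of all features, 54 were higher at 0.05, beside 22.3%, and 78 lay above 0, with a median of 0.26. The 2 families that joined were Rps27a and Rpl3.

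The count of 5 depended on single samples. It fell to 0 without 4T1 vehicle 7, 4T1 vehicle 15 or 4T1 CIX 8, and to 1 without 4T1 vehicle 11, 4T1 CIX 12 or 4T1 CIX 16, while the count over all genes fell as well and the median stayed between 0.24 and 0.28. It rose to 19 with DESeq2 (18 higher, Rpl5 lower), to 19 with sample quality weights and to 21 when all 16 samples shared one estimate of the spread. These are 23.2%, 23.2% and 25.6% of the set, close to the 26.5%, 21.7% and 22.9% of all genes called in the same fits.

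Rps26 (chromosome 10, 128624534 to 128626747), a protein of the small subunit at the exit of the mRNA channel, measured 658, 538, 602 and 561 CPM in the 4 vehicle samples of 4T1, in the order of their numbers. With CIX it measured 1048, 992, 982 and 939 CPM. The groups did not overlap, and the mean rose 1.66-fold (log2 fold change 0.73, SE 0.0845, adjusted p = 0.000247). Its start window, printed above, holds a pyrimidine tract.

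Rps27a (chromosome 11, 29545846 to 29548109), which is made as a fusion of ubiquitin and a small subunit protein, had the largest increase of the set. Alone it measured 528, 329, 368 and 455 CPM with vehicle and 919, 978, 693 and 888 CPM with CIX, a log2 fold change of 1.04 (SE 0.162) that just missed the threshold (adjusted p = 0.00101). Together with its pseudogenes, of which Gm8430 alone held 26% of the family, it measured 785, 571, 645 and 643 CPM and then 1299, 1275, 1151 and 1336 CPM. The groups were separate in both forms, and the family rose 1.9-fold (log2 fold change 0.93, SE 0.103, adjusted p = 0.000195).

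In the large subunit, Rpl32 (chromosome 6, 115805505 to 115808747) measured 668, 524, 553 and 585 CPM with vehicle and 972, 1006, 904 and 997 CPM with CIX. It rose 1.65-fold (log2 fold change 0.72, SE 0.0906, adjusted p = 0.000366). Rpl4 (chromosome 9, 64173375 to 64178666), which reaches into the exit tunnel of the nascent chain, rose from 1770 ± 42.1 to 2471 ± 95.5 CPM (SD, n = 4 each), by 0.46 on the log2 scale (SE 0.0615, adjusted p = 0.000467). Of their own 31-base words 30% and 32.2% also occur in pseudogenes, on which few counts were placed, and in both genes the groups were separate.

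Rpl22 and Rpl22l1 are a pair in which Rpl22, an RNA-binding protein that the ribosome can do without, is known to restrain its paralogue. Rpl22 (chromosome 4, 152325742 to 152334071) measured 327, 326, 349 and 320 CPM with vehicle and 455, 470, 478 and 524 CPM with CIX. Rpl22l1 (chromosome 3, 28805436 to 28807424) measured 46.6, 45.8, 38.3 and 42.5 CPM and then 74.2, 80.6, 71.6 and 71.7 CPM. Both rose together, by 0.53 (SE 0.0759, adjusted p = 0.000691) and by 0.77 (SE 0.102, adjusted p = 0.000478) on the log2 scale.

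Rpl3, which lines the peptidyl transferase centre, did not pass alone (393 ± 35.2 to 564 ± 57.1 CPM, adjusted p = 0.00383), but its family did. Counted with its pseudogenes, of which Rpl3-ps1 on chromosome X held 73.4% of the family, it rose from 1488 ± 48.5 to 2258 ± 114 CPM (SD, n = 4), which is 1.5-fold (adjusted p = 0.000214). Rpl21 had a log2 fold change of 0.95 alone (SE 0.196, adjusted p = 0.00419), from counts that are 6.1% of its family. Its family gave 0.56 (SE 0.0883, adjusted p = 0.00104), just short of the threshold.

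For 5 of the 82 genes the direction in 4T1 changed with pseudogene counts added, namely Rpl5, Rpl27, Rpl28, Rps2 and Rps28, and Rpl5 had the largest change alone. Rpl5 and Rpl11, apart from their place in the large subunit, bind and inhibit Mdm2, the ligase of p53. Rpl5 alone measured 54.8, 58.4, 51 and 57.8 CPM with vehicle and 44.4, 40.4, 38.7 and 42.7 CPM with CIX in 4T1, a log2 fold change of -0.43 (SE 0.0977, adjusted p = 0.00635). The family, in which Gm15500 held nearly all counts, measured 1773, 1635, 1639 and 1719 CPM and then 1961, 2092, 2120 and 2226 CPM, a log2 fold change of 0.30 (SE 0.0668, adjusted p = 0.00638). Neither passed at 0.001, and the groups were separate in both, in opposite directions. Rpl11 did not pass in either form (log2 fold change 0.21 alone and 0.28 as a family, adjusted p = 0.167 and 0.0136).

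**Figure D3:**
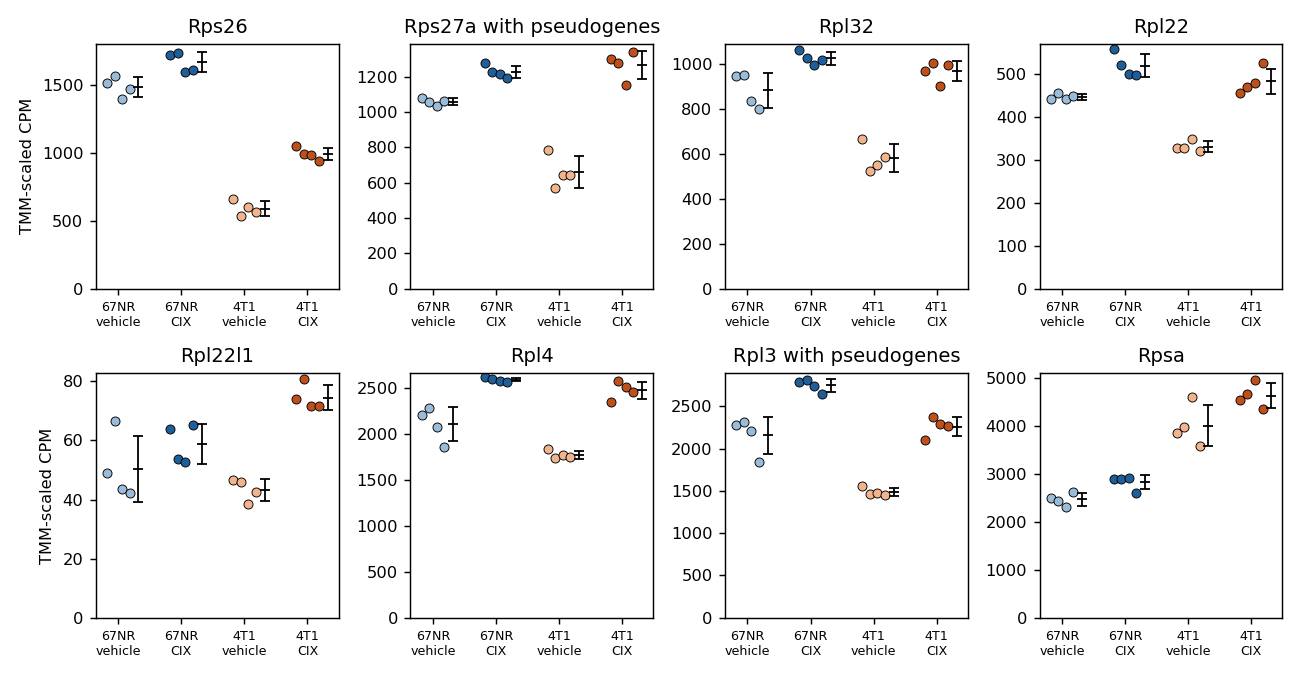
Level (y axis, CPM on the TMM scale) of 8 genes in each of the 4 groups, as points for the 4 samples and a mean with SD beside them; Rps27a and Rpl3 include their pseudogenes. In 4T1 the CIX samples lie above the vehicle samples without overlap in every panel but Rpsa, and Rpsa is highest in 4T1.

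None of the stalk genes passed the threshold. Rplp0, Rplp1 and Rplp2, to which elongation factors dock, had log2 fold changes of 0.25, 0.30 and 0.33 in 4T1 (adjusted p = 0.0244, 0.00718 and 0.0088). In all 3 the CIX samples lay above the vehicle samples. Rplp1, the most abundant member per length, measured 2034, 2002, 1983 and 1818 CPM with vehicle and 2398, 2368, 2618 and 2360 CPM with CIX.

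Rps19, the gene most often mutated in Diamond-Blackfan anemia, showed no separation (637, 672, 998 and 570 CPM with vehicle, 794, 748, 829 and 710 CPM with CIX, adjusted p = 0.576), and the high vehicle value is that of 4T1 vehicle 11. Without that library the log2 fold change of Rps19 was 0.28 (adjusted p = 0.0451). Rps14, of the platform of the small subunit, had a log2 fold change of 0.28 (adjusted p = 0.0181). At the lower end stood Rps27 (log2 fold change -0.96, SE 1.18), Rpl5, Rpl7l1 (-0.27, adjusted p = 0.133), Rpl27 (-0.25, adjusted p = 0.512) and Rps19bp1 (-0.12, adjusted p = 0.488). The values of Rps27 and Rpl27 rest on 4T1 vehicle 11, without which they were 0.38 (adjusted p = 0.252) and 0.0324 (adjusted p = 0.913).

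The other genes that have a paralogue in the set did not pass in 4T1. Rpl7 went from 1421 ± 65.9 to 1847 ± 153 CPM (SD over 4 samples), which is 0.36 on the log2 scale (adjusted p = 0.00529), whereas its paralogue Rpl7l1 lay below 0. Rpl36a went from 86.2 ± 2.93 to 105.8 ± 6.71 CPM (log2 fold change 0.28, adjusted p = 0.0265) without overlap, and Rpl36al from 137.5 ± 31.4 to 142.2 ± 6.11 CPM (0.06, adjusted p = 0.779) with overlap. Rpl10 gave 0.38 (adjusted p = 0.0344), Rpl39 0.23 (adjusted p = 0.0419), Rps27rt 0.30 (adjusted p = 0.0411) and Rps4x, encoded on the X chromosome, 0.29 (adjusted p = 0.00567). The difference within a pair was not tested.

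In 67NR no ribosomal protein gene passed the threshold (limma-voom), in a comparison in which 0.387% of all genes did. At an unadjusted p below 0.05, 36 were higher and 1 lower, beside 16.0% and 16.8% of all genes. Of the set, edgeR called 0 and DESeq2 called 1 (Rpl23), while DESeq2 called 8.93% of all genes. The log2 fold change was above 0 in 69 of the 82 genes, with a median of 0.16 beside -0.00656 over all genes. In 32 genes all CIX samples exceeded all vehicle samples, which 12.7% of all genes did, and in 0 the reverse held, beside 10.6%. At an adjusted p below 0.05, 16 genes were higher beside 8.49% of all genes, and none was lower beside 9.22%. As families 25 were higher at 0.05, beside 8.9%.

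The genes with the highest log2 fold change in 67NR were Rpl3 (0.48, adjusted p = 0.0472), Rpl10a (0.33, adjusted p = 0.0165), Rpl12 (0.33, adjusted p = 0.113), Rps13 (0.32, adjusted p = 0.173) and Rpl13a (0.30, adjusted p = 0.0862). Of these, 3 rest in part on 67NR vehicle 13, without which Rpl3 gave 0.32 (adjusted p = 0.00665), Rps13 0.16 (adjusted p = 0.152) and Rpl13a 0.19 (adjusted p = 0.0632). Rps13 held 29.5% of its family, which measured 751.9, 770.1, 722.4 and 716.9 CPM with vehicle and 869.3, 794.5, 843.3 and 782.9 CPM with CIX. Among the genes counted alone, Rpl4 had the lowest adjusted p, at 0.0131. Rpl4 measured 2199, 2283, 2070 and 1858 CPM with vehicle and 2614, 2595, 2579 and 2567 CPM with CIX, without overlap. Among the families the lowest adjusted p (limma-voom) was that of Rpl10a, at 0.00548. The genes that led in 4T1 gave smaller values here, as Rps26 had 0.15 (adjusted p = 0.113), Rps27a 0.15 (adjusted p = 0.201), Rpl32 0.20 (adjusted p = 0.0611), Rpl22 0.20 (adjusted p = 0.0473) and Rpl22l1 0.23 (adjusted p = 0.305).

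At the lower end in 67NR were Rps27 (-1.83, SE 1.63), Rps27l (-0.35, SE 0.433), Rpl36al (-0.18, adjusted p = 0.116), Rpl5 (-0.18, adjusted p = 0.293) and Rps19bp1 (-0.15, adjusted p = 0.188). The values of Rps27 and Rps27l rest on 67NR vehicle 13, without which they were -0.22 and 0.14. As a family, Rpl5 again turned to a positive value, at 0.32 (adjusted p = 0.0243).

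The response to CIX was then compared between the lines with an interaction term over 16 samples. Among the genes counted alone, Rps26 was the only one that passed, with the stronger response in 4T1 (difference of log2 fold changes 0.58, SE 0.0943, adjusted p = 0.000322), which is 1 of 82 beside 4.8% of all genes that were higher and 3.08% that were lower in this contrast. At 0.05, 9 were higher and 0 lower, beside 15.1% and 14.2%. Without both libraries that stood apart its value was 0.60 (adjusted p = 0.000905). Counted with its pseudogenes, Rps27a passed as well (0.73, SE 0.11, adjusted p = 0.000175), beside 4.93% of all features. In 67NR the Rps27a family measured 1080, 1058, 1031 and 1059 CPM with vehicle and 1274, 1223, 1213 and 1192 CPM with CIX, separate but by a small margin.

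Rpl32 (0.52, adjusted p = 0.0024) and Rps27a alone (0.90, adjusted p = 0.00194) did not pass, nor did Rpl21 (1.02, adjusted p = 0.0146) and Rpl22l1 (0.54, adjusted p = 0.0349). Rps27 was also among the 5 highest and did not pass. Its value ranged from -0.72 to 2.23 with 1 sample left out, and it is the gene that was highest in the 2 libraries that stood apart. The most negative differences were those of Rpl27 (-0.34), Rpl7l1 (-0.29), Rpl5 (-0.26), Rpl10a (-0.25) and Rps3a1 (-0.21), none with an adjusted p below 0.12. As families, Rpl27, Rpl5 and Rpl10a gave -0.05, -0.03 and -0.03, and without both libraries that stood apart the families of Rpl5 and Rpl10a turned to 0.0457 and 0.00517. The median difference of the 82 genes was 0.09 beside -0.02 over all genes, and 63 were above 0. The call on Rps26 was lost without 67NR vehicle 1, 67NR vehicle 5, 67NR CIX 10, 67NR CIX 14, 4T1 vehicle 7 or 4T1 vehicle 15, and its value then stayed between 0.54 and 0.57. Without 4T1 vehicle 3 there were 3 calls among the 82, beside 632 higher and 417 lower of 12725 genes in all. Without 4T1 CIX 12 there were 2, beside 552 higher and 319 lower of 12815.

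**Figure D4:**
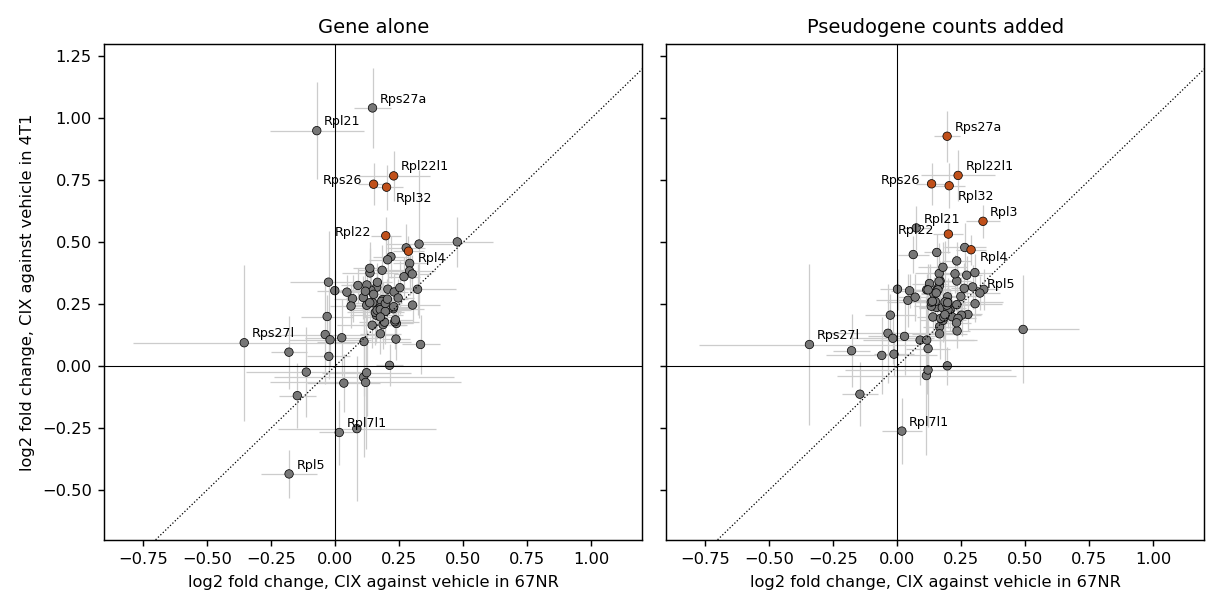
Log2 fold change of each ribosomal protein gene, CIX against vehicle, in 67NR (x axis) and in 4T1 (y axis), for the gene alone (left) and with pseudogene counts added (right). Bars are SE, red points passed an adjusted p of 0.001 in 4T1, the dotted line marks equal values, and Rps27, at -1.83 and -0.96, lies outside the axes; Rps27a and Rps26 sit above the line in both panels and Rpl5 moves from below 0 to above 0.

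With vehicle alone, most of the ribosomal protein genes that differed between the lines were lower in 4T1. Of the 82 genes, 20 were lower and 2 were higher (limma-voom, adjusted p below 0.001), beside 19.5% and 20.3% of all genes. The median log2 difference, 4T1 minus 67NR, was -0.27 beside -0.0092 over all genes, and 69 of the 82 lay below 0. Genes other than these with a mean transcript length below 1000 bases had a median of -0.17, and removing the trend with length and GC content from each sample left 16 genes called, which is 19.5% beside 40.1% of all genes, and a median of -0.17. At 0.05, 43 were lower and 5 higher, beside 34.0% and 33.2%. All 4T1 samples lay below all 67NR samples in 34 genes and above them in 6, beside 30.3% and 31.2%. As families, 26 were lower and 3 higher, beside 20.1% and 20.6%. Without both libraries that stood apart, 25 genes were called, which is 30.5% beside 40.0% of all genes, and the median was -0.31. Leaving out 4T1 vehicle 7 left 11 calls among the 82, beside 1984 higher and 2109 lower of 11683 genes in all. Leaving out 4T1 vehicle 15 left 12, beside 2000 higher and 2191 lower of 11671. The vehicle samples of 4T1 also enter the comparison with CIX, so the values of the comparisons are not independent.

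Of the genes that passed, Rps26 differed most. It measured 1515, 1567, 1395 and 1469 CPM in 67NR against the values of 538 to 658 CPM in 4T1 given above, which is 2.54-fold lower in 4T1 (log2 difference -1.35, SE 0.0831, adjusted p = 1.22e-06). With CIX, 4T1 reached 939 to 1048 CPM and thus remained below every 67NR sample. Rpl36al, a paralogue of Rpl36a, was 2.01-fold lower in 4T1 (137.5 ± 31.4 against 270.9 ± 27.1 CPM, SD, n = 4, adjusted p = 0.000293), while Rpl36a itself gave 0.13 (adjusted p = 0.121).

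Rps29, a zinc-binding protein of the small subunit, measured 225, 235, 237 and 206 CPM in 4T1 and 446, 427, 420 and 427 CPM in 67NR (1.92-fold lower, adjusted p = 3.17e-06). Its family, of which Gm14303 held 52.2%, gave a log2 difference of -1.03 (adjusted p = 1.74e-06). Rpl41, the smallest protein of the large subunit, was 1.71-fold lower (adjusted p = 3.26e-05), and among the stalk genes Rplp2 was lower (log2 difference -0.69, adjusted p = 6.91e-05) while Rplp0 gave 0.04 (adjusted p = 0.755). The others called lower ranged from Rpl27a (-0.80) to Rpl22 (-0.44) and included Rpl8, Rpl15, Rpl19, Rpl32, Rpl38, Rps4x, Rps6, Rps9, Rps15, Rps23 and, outside the ribosome, Rps19bp1. The Rps27a family was also lower in 4T1 (1.62-fold, adjusted p = 0.000197).

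The genes higher in 4T1 were Rpsa and Rpl14. Rpsa, a small subunit protein also known as a laminin receptor at the cell surface, measured 3857, 3990, 4607 and 3588 CPM in 4T1 and 2504, 2439, 2304 and 2628 CPM in 67NR. It was 1.61-fold higher without overlap (log2 difference 0.69, SE 0.0888, adjusted p = 0.00011). Rpl14 was 1.56-fold higher (629 ± 21.9 against 400.6 ± 38.1 CPM, adjusted p = 5.97e-05), and its family, of which Rpl14-ps1 held 48.7%, gave 1.5-fold (adjusted p = 2.76e-05).

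Rps12 joined them once its pseudogenes were counted. Its family measured 1385, 1364, 1281 and 1269 CPM in 4T1 and 888, 892, 841 and 749 CPM in 67NR, which is 1.56-fold higher (adjusted p = 3.68e-05). The gene alone was listed at 0 CPM in most samples, with 41 CPM in 4T1 CIX 8 and 15.9 CPM in 67NR vehicle 5. Rps2 (0.36, adjusted p = 0.0148), Rpl30 (0.26, adjusted p = 0.0174) and Rpl5 (0.23, adjusted p = 0.0721) followed without passing. Rps27l (-1.36, SE 0.511, adjusted p = 0.0401) was at the low end, and it was raised in 67NR vehicle 13. Without both libraries that stood apart, Rps27l gave -1.16 (adjusted p = 0.00334) and Rps19 gave -0.65 (adjusted p = 0.000322).

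Rps27 set 2 libraries apart. It measured 11.6, 9.57 and 17.1 CPM in 67NR vehicle 1, 5 and 9 but 1134 CPM in 67NR vehicle 13, and 7.66, 10.1 and 6.6 CPM in 4T1 vehicle 3, 7 and 15 but 340 CPM in 4T1 vehicle 11. In the 8 CIX samples it lay between 8.70 and 15.1 CPM. Rps27rt, a copy of Rps27 elsewhere in the genome that shares 92.4% of its words with other coding genes, ranged only from 411 to 615 CPM over all 16 samples. Most reads of the pair were thus placed on Rps27rt in every library but 67NR vehicle 13, where Rps27rt measured 597.1 CPM. In 4T1 vehicle 11, Rps27rt measured 535.4 CPM and still exceeded Rps27.

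The same libraries were high in other members. In 67NR vehicle 13, 7 genes exceeded the mean of the other 3 replicates by more than 2-fold, namely Rps27, Rps27l, Rps15a, Rpl18, Rpl27, Rpl35 and Rps28. In 4T1 vehicle 11 these were Rps27, Rpl18, Rpl27 and Rps27l, all of which are in the first list. As families, 5 and 3 exceeded 2-fold. The Rpl27 family deviated by only 0.229 in 67NR vehicle 13 and 0.268 in 4T1 vehicle 11 (log2), and the Rps28 family by 0.706 in 67NR vehicle 13. The Rpl37 and Rpl37a families were higher there, by 0.922 and 0.939, while these genes alone gave -0.219 and -0.548. Across 83 genes the log2 deviations of the 2 libraries had a Pearson correlation of 0.943, and of 0.844 without Rps27. This is given as a description, since both libraries were normalised in the same way and genes are not replicates. In no other library were more than 1 gene over 2-fold higher than its group. What the 2 libraries share was not tested.

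**Figure D5:**
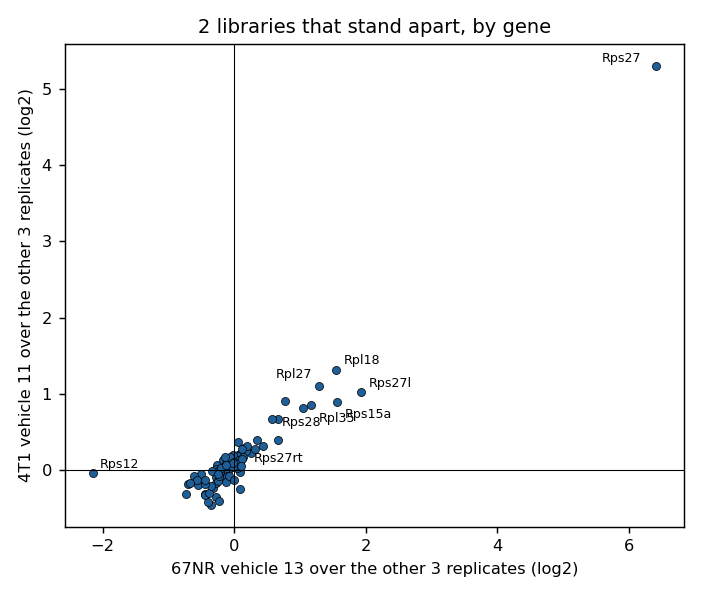
Log2 ratio of CPM in one library over the mean of the other 3 replicates of its group, for 67NR vehicle 13 (x axis) and 4T1 vehicle 11 (y axis), with 1 point for each of 83 genes. Rps27 lies at 6.42 and 5.3, Rpl18, Rpl27 and Rps27l exceed 1 on both axes, and Rps12, with 0.3% of its family's counts, is the point at the far left.

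Other genes of protein synthesis were described by lists. Of 3 ribosomal proteins whose symbols fall outside the rule, among them Fau, which is made as a fusion with a ubiquitin-like protein, and Rack1, a scaffold on the small subunit, none passed in any of the 4 comparisons. In 4T1, Fau gave a log2 fold change of -0.265 (86.2 ± 8.91 to 72.4 ± 7.06 CPM, adjusted p = 0.0864).

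The next list held translation factors and other genes known for TOP mRNAs. In 4T1, 25 of 26 had a positive log2 fold change, with a median of 0.25, and 4 passed, all higher: Eef1g, a subunit of elongation factor 1B (1.03, adjusted p = 0.000103), Eif4b, which aids mRNA unwinding (0.71, adjusted p = 0.00018), Eif3f, of the scaffold factor of initiation (0.48, adjusted p = 0.000746), and the intermediate filament Vim (1.24, adjusted p = 4.3e-05), which is also one of the mesenchymal markers. Of all genes tested in 4T1, 49.6% were positive and 5.34% were higher at the same threshold. The lowest of the list were Tpt1 (-0.04, adjusted p = 0.85) and Naca (0.03, adjusted p = 0.798). In 67NR all 26 were positive with a median of 0.20, beside 49.0% of all genes that were positive. There 0 passed with limma-voom, beside 0.387% of all genes, while 10 were higher at an adjusted p below 0.05, beside 8.49%. Eef1g and Vim were also higher in the interaction, beside 4.8% of all genes, and the median there was 0.09. Between the lines 4 of 26 were higher and 10 lower in 4T1, with a median of -0.12, beside 20.3% and 19.5% of all genes.

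With adjusted p below 0.001, 4 of 94 ribosome assembly genes in 4T1 were higher and 4 lower, beside 5.34% and 4.02% of all genes. At 0.05, 9 were higher and 42 lower, beside 21.9% and 20.8% of all genes, and the median was -0.33. The highest were Mrto4, an assembly factor of the stalk (12.94 ± 3.77 to 41.52 ± 2.03 CPM, log2 fold change 1.7, adjusted p = 0.000161), and Taf1b, of the RNA polymerase I initiation complex (1.64, adjusted p = 0.000104). The lowest were Tsr1, a late factor of small subunit assembly (-1.02, adjusted p = 0.00138), and Taf1a, of the same initiation complex as Taf1b (-0.88, adjusted p = 0.00154). In 67NR the median was -0.06, and of the 94 genes 4 were higher and 7 lower at 0.05, beside 8.49% and 9.22% of all genes.

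The median of the assembly genes and that of the ribosomal proteins thus had opposite signs in 4T1 (-0.33 and 0.25). In the interaction, 5 of 94 assembly genes were higher and 5 lower, beside 4.8% and 3.08% of all genes, with a median of -0.26. No test of the difference between the lists was made. Of 17 genes of mTORC1 signalling and TOP mRNA control tested in 4T1, 0 passed with limma-voom. Of all genes 5.34% were higher and 4.02% lower. The median of the 17 was 0.09. At 0.05, 4 were higher and 2 lower, beside 21.9% and 20.8% of all genes. Myc (0.62, adjusted p = 0.00786) and Tsc1 (0.59, adjusted p = 0.0165) were highest, and Mlst8, a subunit of mTOR complexes (-0.65, adjusted p = 0.00127), and Larp4 (-0.45, adjusted p = 0.00392) were lowest. In 67NR and in the interaction 0 of this list passed as well, with medians of 0.00811 and 0.14. Of all genes, 0.387% passed in 67NR, and 4.8% were higher and 3.08% lower in the interaction. Of 16 tested between the lines, 3 were higher and 2 lower in 4T1, beside 20.3% and 19.5% of all genes. Between the lines, 17 of 94 assembly genes were higher and 10 lower in 4T1, with a median of 0.12, where 20.3% and 19.5% of all genes were.

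Changes were also set beside the annotated pyrimidine tract. The 30 families with a tract at a listed start had a median log2 fold change of 0.26 with CIX in 4T1 and the 33 tested families without one had 0.24. In 67NR the medians were 0.17 and 0.16, in the interaction 0.13 and 0.07, and between the lines -0.345 and -0.258. Rps26 and Rpl22l1 carry the tract in their windows and Rpl22 and Rpl4 do not, although all 4 rose in 4T1.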

How the data were processed

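RNA of 16 samples, 4 in each of 4 groups, was sequenced as single-end reads from poly(A)-selected stranded libraries. Reads were assigned by the authors with salmon 0.12 to Ensembl GRCm38 transcripts and summed per gene with tximport, and the deposited values are estimated counts without normalization. How tximport scaled them is not given in the sources used here. The submitters' processing notes name a human build, while the gene IDs are those of mouse.

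Symbols, positions and lengths came from GENCODE M21 (GRCm38) for 32832 genes. The ribosomal protein genes, the other lists and the tests were chosen with earlier results of these data known. Pseudogenes were joined to a gene by symbol, or when at least 20% of their 31-base words occur in it, and sums over a gene and its pseudogenes were fitted in the same way. Counts were rounded, genes with TPM below 1 in more than 3 samples of a comparison were left out, and limma-voom (limma 3.58.1, edgeR 4.0.16 for TMM, R 4.3.3) was fitted over all genes with Benjamini-Hochberg adjustment and a threshold of 0.001. CPM values use 1 TMM scale over 16 samples. For the interaction a gene had to pass the filter in at least 1 line.

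Named genes were, in each comparison, the 5 highest and 5 lowest tested log2 fold changes, Rps27a, the stalk genes, Rpl5, Rpl11, Rps19, Rps14, paralogue pairs, the extremes of TPM, and 2 genes at either end of the other lists; further genes that passed the threshold, and those of the library deviations and pseudogene split, were added after their values were seen. Groups of 4 that do not overlap give a 2-sided exact permutation p of 0.0286, the smallest possible. Alternatives were edgeR's quasi-likelihood test, DESeq2 1.42.0 (Wald test and size factors), library size alone, TMM without ribosomal protein genes, other filters, all samples in a fit, quality weights, removal of length and GC trends, pseudogene counts added and leaving out each sample. The fit was also run on simulated counts with the same spread for every gene and no library that stands apart. That run therefore does not cover the unevenness of the real libraries. Whether the samples of a group came from separate cultures is as the study states, as biological replicates, and all replicate pairs differed by more than counting noise. At 21715700 to 29450629 counts per sample, 3 counts are 0.102 to 0.138 CPM, which covers counting error only. Some genes of the set entered the fits and counts but are not reported here by name.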

Additional observations from a re-analysis of the deposited data

Results flagged for a closer look

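Of 148 groups of 4 samples tested, 13 held a sample whose distance from the nearest of the others was beyond Dixon's 95% critical value. About 7.4 would be expected by chance if genes had been picked without regard to their values. The groups were those of genes picked for naming, some for extreme fold changes that rest on outlying samples, and they share libraries. The 13 beside 7.4 is therefore a description and no test. In 67NR vehicle 13, Rps27 measured 1134 CPM (9.57 to 17.1 CPM in the other 3 samples), Rps27l 373.9 CPM (88.1 to 106.8), Rpl27 315.9 CPM (113.2 to 140.6) and Rpl3, in the other direction, 381.6 CPM (603.2 to 636.5). In 4T1 vehicle 11, Rps27 measured 340.1 CPM (6.6 to 10.1). These 5 values belong to the 2 libraries that stood apart, and what sets them apart was not tested.

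The other 8 were smaller deviations of single genes. In 67NR CIX 14, Rpl27 measured 131.3 CPM (185 to 196.1) and Rpsa 2607 CPM (2888 to 2910). In 67NR CIX 2, Rpl36a measured 95.57 CPM (82.02 to 83.77) and Rplp0 1788 CPM (1642 to 1653), and in 67NR CIX 10 Rps27 measured 9.298 CPM (11.14 to 11.25). In 4T1, Rpl7l1 measured 119.7 CPM in vehicle 3 (89.66 to 93.16), Rplp1 2618 CPM in CIX 12 (2360 to 2398) and Rpl10 1058 CPM in CIX 16 (827.9 to 847.5).

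The response of Rps26 to CIX differed between the lines by 0.5822 on the log2 scale (limma-voom interaction, adjusted p = 0.000322), with a larger increase in 4T1.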

How the results depend on the processing

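No paired analysis was made, as the labels number the samples 1 to 16 and name no pairs. The numbers run through the 4 groups in a fixed order, so each consecutive set of 4 holds 1 sample of every group. Whether such a set is a batch is not stated, and no fit by set was run. For CIX in 4T1, the count of 5 genes became 48 at an adjusted p below 0.05, 19 with DESeq2, 19 with quality weights, 21 with all samples in the fit, 9 with length and GC trends removed, 26 with pseudogene counts and all samples, and 3 with pseudogene counts and without the 2 libraries that stood apart, and it ranged from 0 to 5 with 1 sample left out. The share of all genes called moved with it, from 9.36% to 42.7%, 26.5%, 21.7%, 22.9%, 9.84%, 23.2% and 5.24% in these fits in turn. The median was 0.20 with library size alone and 0.31 without a filter. In 67NR the count of 0 became 16 at 0.05 and 1 with DESeq2, beside 17.7% and 8.93% of all genes, and the median was 0.23 with the trends removed. In the interaction the count of 1 became 9 at 0.05, 4 with DESeq2, 3 with quality weights and 2 with the trends removed, with pseudogene counts, or with these and without both libraries, and 0 to 3 with 1 sample left out, while the median was 0.0388 with library size alone and 0.14 with quality weights or without both libraries. The share of all genes called there went from 7.88% to 29.3%, 15.7%, 15.2%, 8.27%, 8.03% and 6.19% in the first 6 of these settings in turn. Between the lines the count of 22 became 48 at 0.05 and 36 with pseudogene counts and all samples, beside 67.3% and 47.0% of all genes. It was 11 to 29 with 1 sample left out, and the median was -0.17 after removing the trends. The 11 stood beside 1984 higher and 2109 lower of 11683 genes in all, and the 29 beside 2658 and 2222 of 11996. With pseudogene counts the shares of counts were 10.01% and 11.1% in 67NR and 8.33% and 9.58% in 4T1. With 1 sample left out, the medians ranged from -0.34 to -0.21 between the lines, from 0.24 to 0.28 in 4T1, from 0.13 to 0.19 in 67NR and from 0.06 to 0.13 in the interaction.

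Of 1857 recomputed values of single genes, 1643 kept direction and side of the threshold, 107 fell short of it (81 with 1 sample left out), 80 newly passed and 27 changed sign. In 4T1, Rpl5 turned to 0.30 with pseudogene counts, 0.30 with all samples added and 0.28 without both libraries, and in 67NR to 0.32, 0.34 and 0.25. Rpl27 in 4T1 gave 0.0713, 0.0774 and 0.134 in these settings and -0.434 to 0.0324 with 1 sample left out. Rpl36al in 4T1 gave -0.00167 with library size alone, -0.0379 with pseudogene counts and without both libraries, and -0.0439 to 0.201 with 1 sample left out. Rps27 gave 0.38 in 4T1 with pseudogene counts and without both libraries, -1.51 to 0.38 with 1 sample left out, and -0.72 to 2.23 in the interaction. Rps27l in 4T1 gave -0.0107 with edgeR, -0.0207 with DESeq2, -0.0792 with quality weights and -0.17 to 0.36 with 1 sample left out, and in 67NR 0.0231 with quality weights, 0.15 with pseudogene counts and without both libraries, and -0.56 to 0.14 with 1 sample left out. In the interaction, Rpl10a gave 0.00517 and Rpl5 0.0457 with pseudogene counts and without both libraries. Where no value above shows it, the cause was not tested. The settings without both libraries, and those joining pseudogene counts with another change, were chosen after seeing the data. The placing of reads between near-identical copies is not resolved by depth.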
